A study of Mus musculus with 6 samples.

Results

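Ion channel transcripts were examined in mouse hippocampal neurospheres, cultures in which neural stem and progenitor cells grow as floating spheres. The set comprised every row of the deposited table whose symbol names a subunit of a potassium (Kcn), voltage-gated sodium (Scn), voltage-gated calcium (Cacn) or chloride (Clcn) channel, a hyperpolarization-activated channel (Hcn), or a transient receptor potential (TRP) channel of the TRPC, TRPM or TRPV groups. There were 122 such rows among 14327 genes. They held 68 potassium, 21 calcium, 9 sodium and 7 chloride channel genes, 3 Hcn genes, 13 TRP genes, and Trpc4ap, whose product binds a TRP channel and is no channel itself. Members were taken by symbol alone, but the choice of this set was made with earlier results of these data known.

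Ion channels are membrane proteins that let selected ions cross when they open. Potassium channels set the resting potential of a cell, sodium channels carry the upstroke of the action potential, and calcium channels turn depolarization into calcium entry, while accessory subunits bring many pores to the membrane and tune their gating. In the brain, astrocytes and radial glia-like stem cells use inwardly rectifying potassium channels to take up potassium, whereas voltage-gated sodium and calcium channels are best known from neurons.

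The 6 libraries were 3 of wild-type (WT) cultures and 3 of cultures labelled as a conditional knockout (cKO) of Slc22a17, which encodes a receptor for lipocalin 2, a protein that carries iron. All came from hippocampus at postnatal day 0, grown in DMEM-F12 with B27, N2, EGF and bFGF. The labels give no strain, no driver of the deletion and no deleted exon. They do not say that libraries of a group stem from separate animals or cultures, so that the p-values rest on a spread which may be technical. Levels are FPKM (fragments per kilobase of transcript, scaled to the size of the library), which can be compared between genes. Where 6 values of a gene are given, WT replicates 1 to 3 come first and cKO replicates 1 to 3 follow.

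Slc22a17 itself read 181, 169 and 204 against 164, 166 and 187 FPKM, with overlapping groups (log2 fold change -0.097, adjusted p = 0.707 in limma). A two-sided exact permutation test gave p = 0.5, where 0.1 is the lowest that 3 against 3 can reach. The transcript level therefore did not bear out the label. As the deleted exons are not given, a level for the whole gene cannot tell whether part of it was lost. Each difference below sets WT against the libraries labelled cKO. The Y-linked transcripts Ddx3y and Eif2s3y summed to 0.10, 0.07 and 25.9 FPKM in WT but 50.5, 43.8 and 51.2 FPKM in the libraries labelled cKO, so genotype and Y-linked share cannot be told apart. Where a fit was adjusted for the Y-linked share, that is this sum relative to its mean in the libraries labelled cKO, and Slc22a17 then had a log2 fold change of -0.45. That adjustment rests almost wholly on WT replicate 3, since the sum was near 0 in the other WT libraries, and its values have wide intervals. They do not separate genotype from Y-linked share. Neural stem markers (7 of 7 in the table) summed to 3820.4 to 4020.1 FPKM in WT and 3522 to 3825 FPKM in the libraries labelled cKO. Fabp7, Vim and Slc1a3 averaged 1994, 1041 and 528 FPKM, but Pax6 only 11.9 and Hes5 3.81 FPKM. Astrocyte markers summed to similar levels, 3028 to 4338 FPKM in WT and 4175 to 4451 FPKM in the libraries labelled cKO. Of the neuronal markers only Map2 was high, and Dcx, a marker of young neurons, did not exceed 0.47 FPKM. Microglial markers (5 of 5) summed to 2.76 to 3.82 FPKM in WT and 1.86 to 4.89 FPKM in the libraries labelled cKO, and markers of endothelium and pericytes (3 of 5) to 3.54 to 4.27 FPKM in WT and 3.36 to 5.13 FPKM, with Kdr at 0.08 FPKM or below.

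Most channel genes had low levels. Of the 122 rows 57 reached a mean of 1 FPKM over the 6 libraries and were tested, and 65 did not, whereas 11596 of the 14327 genes of the table were tested. Only Kcnj10 exceeded 100 FPKM. Another 22 channel genes lay between 10 and 100 FPKM, 34 between 1 and 10, 50 between 0.1 and 1, and 15 below 0.1 FPKM. Between 10 and 100 FPKM stood 18.0% of channel rows against 40.8% of all genes, and between 0.1 and 1 FPKM 41.0% against 15.1%. Cacna2d3 (1.02 FPKM) and Cacna1d (1.11 FPKM) stood just inside the filter, each through a mean above 1 in 1 group only, and Scn2a and Cacnb2 (0.825 FPKM each) just outside.

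**Figure D1:**
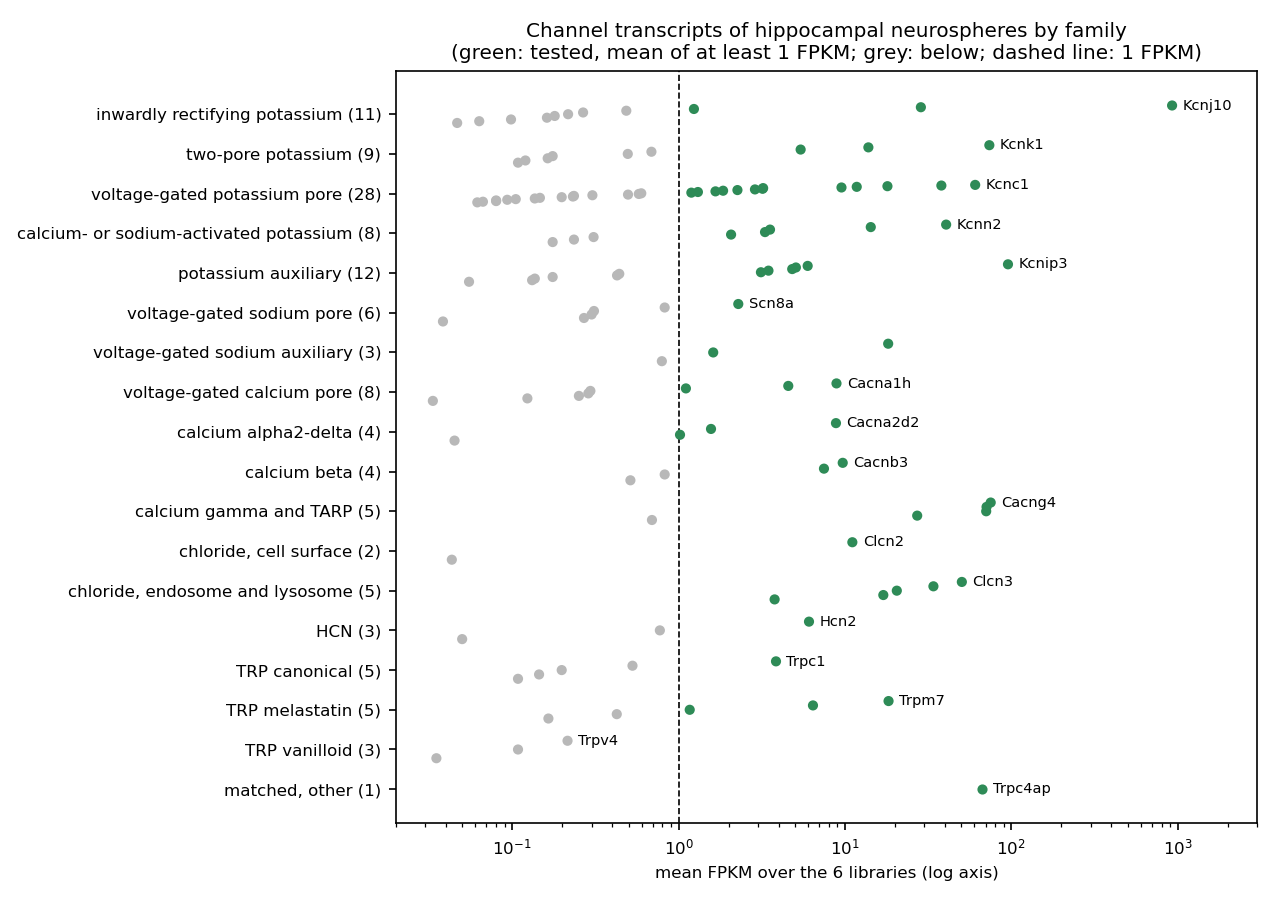
Mean FPKM over the 6 libraries (log axis) of the 122 channel rows, 1 point per gene, by family, with the number of rows of each family in brackets and leading genes named. Kcnj10 stands apart at 926 FPKM, and every family but the TRP vanilloid channels has at least 1 gene right of the line at 1 FPKM.

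Kcnj10 (gene identifier 16513, chromosome 1, 172341210 to 172374085 in GRCm38) dominated the set. It encodes Kir4.1, the inward rectifier with which glia take up potassium. With a mean of 926 FPKM it held rank 33 among all genes of the table and made up 96.7% of the summed level of the 11 Kcnj genes. Kcnj16, whose product Kir5.1 forms mixed channels with Kir4.1, averaged 28.6 FPKM and Kcnj4 1.24 FPKM. The other 8 Kcnj genes lay between 0.0467 and 0.485 FPKM.

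The nearest channel neighbours of these 2 abundant genes had low levels. Kcnj9, a subunit of G protein-gated potassium channels, lies 11.9 kb from Kcnj10 with no protein-coding gene between them, and averaged 0.18 FPKM, a ratio of 5145 between the neighbours. Kcnj2 lies 38.2 kb from Kcnj16 on chromosome 11 and averaged 0.267 FPKM, a ratio of 107. The 250 bases upstream of the starts of Kcnj10 and Kcnj9 are printed because this pair differed most in level, 5′ to 3′ on the strand of each gene (RefSeq, GRCm38.p6). They are chr1:172340960-172341209 on the plus strand and chr1:172329323-172329572 on the minus strand. Capitals mark GC boxes (GGGCGG or CCGCCC) and TATA boxes (TATAAA or TTTATA).
Kcnj10: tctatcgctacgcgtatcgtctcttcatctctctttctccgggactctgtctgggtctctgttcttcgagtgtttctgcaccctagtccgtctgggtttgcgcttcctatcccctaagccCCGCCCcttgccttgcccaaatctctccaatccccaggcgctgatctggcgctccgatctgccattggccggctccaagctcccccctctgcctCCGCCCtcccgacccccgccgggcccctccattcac
Kcnj9: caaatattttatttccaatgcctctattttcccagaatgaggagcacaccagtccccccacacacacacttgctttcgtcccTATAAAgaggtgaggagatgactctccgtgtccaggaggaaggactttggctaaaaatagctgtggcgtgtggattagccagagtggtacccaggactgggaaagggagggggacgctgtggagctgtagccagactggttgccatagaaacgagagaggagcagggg
The Kcnj10 window held 2 GC boxes and was 62.0% G and C, and the Kcnj9 window held 1 TATA box and was 52.0% G and C. Upstream windows were found for 93 of the 122 channel genes, 43 tested and 50 below the filter. A GC box stood on either strand in 55.8% of the windows of tested channel genes, in 50.0% of those below the filter and in 42.7% of 17492 windows of protein-coding genes. A TATA box stood in 1 of the 43, in 3 of the 50 and in 12.4% of all windows. The CRE letters TGACGTCA stood in 1 of the 43, in 0 of the 50 and in 2.01% of all windows, and the SOX letters ACAAAG or CTTTGT in 1 of the 43, in 9 of the 50 and in 14.9% of all windows. The median share of G and C was 62.8% in tested channel genes, 54.6% in those below the filter and 55.2% over all windows. These matches describe letters, not binding sites.

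Potassium channels formed the largest group, with 30 of 68 genes tested. Of the two-pore channels, which carry the background leak of potassium, Kcnk1 averaged 73.8, Kcnk2 13.8 and Kcnk10 5.42 FPKM, and the other 6 did not exceed 0.687 FPKM. Among the 28 voltage-gated pore genes 13 were tested. Kcnc1 (Kv3.1) led them at 60.7 FPKM, and Kcnd3 (Kv4.3), a pore of the transient A-type current, followed at 38.0 FPKM, and Kcna2 stood at 11.8 FPKM. Kcna3, 52.8 kb from Kcna2, averaged 0.497 FPKM. Of the channels opened by intracellular calcium or sodium, Kcnn2 averaged 40.6, Kcnt1 14.3 and Kcnma1, the pore of the BK channel, 2.07 FPKM. Kcnip3, a calcium-binding partner of Kv4 channels also known as the transcriptional repressor DREAM, was the second most abundant row at 95.5 FPKM.

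Pore genes of sodium and calcium channels had low levels, while calcium channel gamma genes were abundant. Of 6 sodium pore genes Scn8a alone was tested, at 2.29 FPKM, while Scn2a, Scn3a and Scn1a averaged 0.825, 0.31 and 0.30 FPKM. The accessory subunit Scn3b averaged 1.62 FPKM. Of 8 calcium pore genes Cacna1h (the T-type channel Cav3.2) averaged 8.90 FPKM, Cacna1a 4.57 and Cacna1d 1.11 FPKM, and the other 5 did not exceed 0.295 FPKM. By contrast Cacng4, Cacng5 and Cacng7, of the gamma family that escorts AMPA receptors, averaged 75.2, 71.0 and 70.7 FPKM, and Cacng8 27.2 FPKM. Neighbours in this family could be alike or far apart. Cacng4 and Cacng5, 79.9 kb apart on chromosome 11, had a ratio of means of 1.06. Cacng6, 7.32 kb from Cacng8 on chromosome 7, averaged 0.692 FPKM, a ratio of 39.3.

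The 5 chloride transporters of endosomes and lysosomes all passed the filter. Clcn3 averaged 50.4, Clcn4 34.0, Clcn6 20.5, Clcn7 17.0 and Clcn5 3.78 FPKM. At the cell surface Clcn2 averaged 11.1 FPKM, and Clcn1, the channel of skeletal muscle, 0.0433 FPKM. Hcn2, a pacemaker channel, averaged 6.08 FPKM and Hcn4 0.05 FPKM. Trpm7, a channel fused to a kinase that passes magnesium, averaged 18.3, Trpm3 6.43 and Trpc1 3.85 FPKM, and the 3 TRPV genes did not exceed 0.215 FPKM.

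No channel gene passed the test between WT and the libraries labelled cKO. In limma on log2(FPKM + 1), 0 of 57 reached an adjusted p under 0.05, where 0.0259% of all tested genes did, and the lowest adjusted p of a channel gene was 0.235. At an unadjusted p under 0.05 in limma, 6 channel genes had higher and 2 lower means in the libraries labelled cKO. These are 10.5% and 3.51% of the 57, against 4.44% and 7.82% of all tested genes, and 14.0% against 12.3% in both directions. The groups did not overlap for 5 channel genes with higher and 2 with lower values. These are 8.77% and 3.51% of the 57, against 7.07% and 10.2% of all tested genes, and 12.3% against 17.2% in both directions. The totals were thus near the background.

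Higher means outnumbered lower ones among the channels. They were higher for 36 of the 57 (63.2%), against 44.5% of all tested genes, and the median log2 fold change was 0.041 against -0.015. The counts were 19 of 30 for potassium, 8 of 12 for calcium, 4 of 6 for chloride, 3 of 4 for TRP and 1 of 3 for sodium channels. The differences were small. Log2 fold changes ran from -0.40 to 0.39, and 38 of the 57 lay within 0.2 of no change. The median half-width of their 95% intervals was 0.26, wider than most of the differences. Without cKO replicate 1 the count was 30 of 57 and the median 0.012. Adjusted for the Y-linked share they were 20 of 57 and -0.091.

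**Figure D2:**
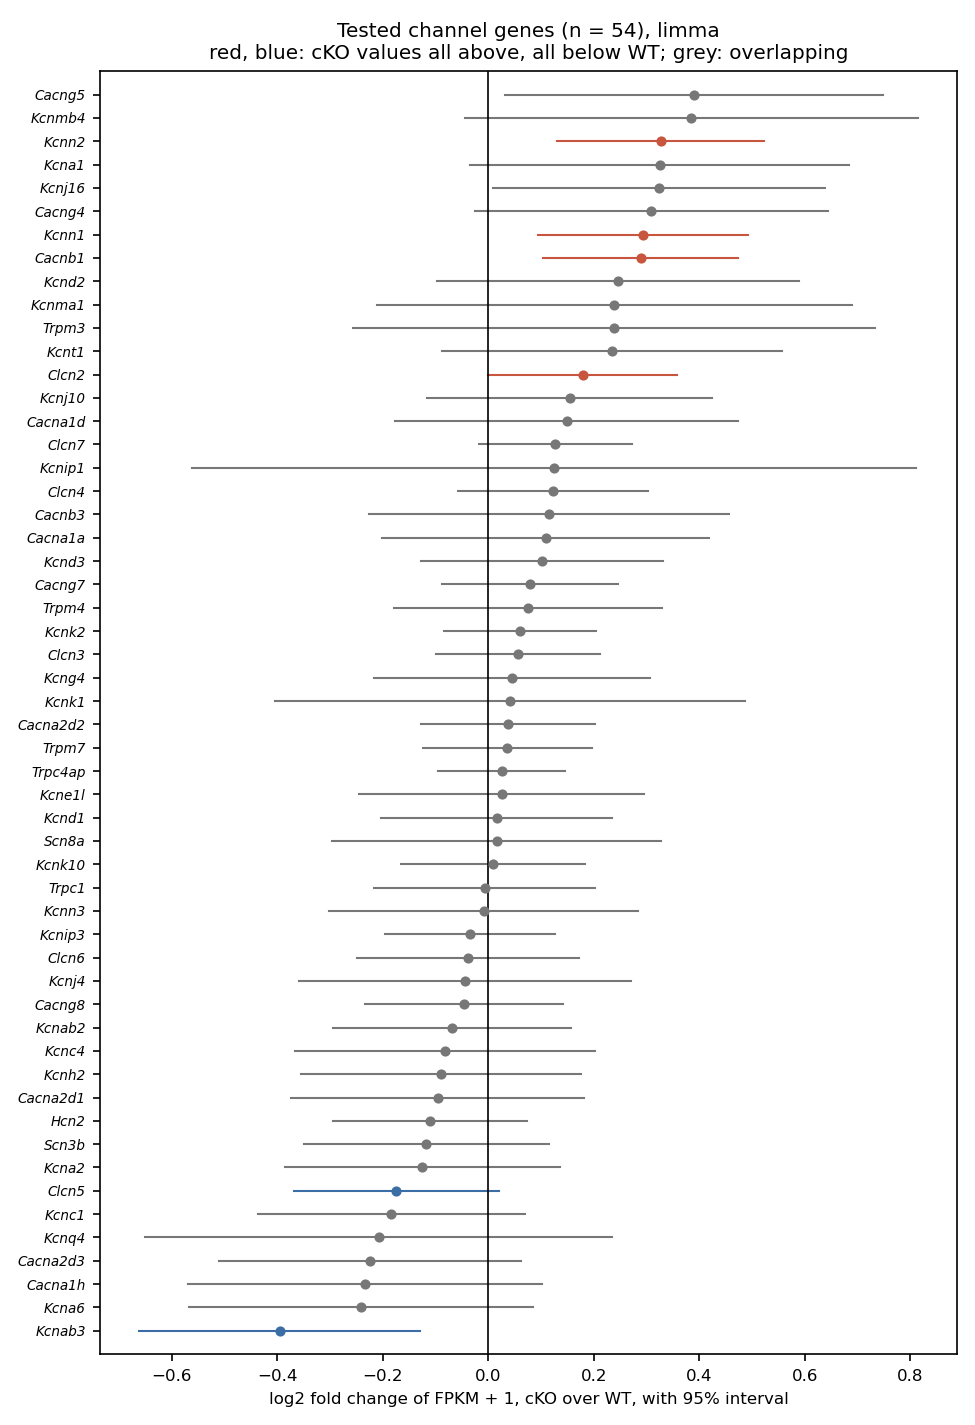
Log2 fold change of FPKM + 1 (cKO over WT) with its 95% interval in limma for 54 of the 57 tested channel genes, in order of size. Values run from -0.40 for Kcnab3 to 0.39 for Cacng5, and colour marks the 4 genes with higher and the 2 with lower values in every library labelled cKO.

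Small-conductance potassium channels open when intracellular calcium rises and hold the membrane potential down, and for 2 of their 3 tested genes the groups did not overlap, where 17.2% of all tested genes did not. These 3 genes were put together after their values were seen. Kcnn2, which encodes SK2 (identifier 140492, chromosome 18, 45268750 to 45685887), read 36.4, 32.7 and 38.6 against 49.9, 41.5 and 44.5 FPKM. All 3 libraries labelled cKO lay above all 3 of WT, with 35.9 ± 3.01 and 45.3 ± 4.26 FPKM (mean ± SD, n = 3 each), a ratio of 1.26 (log2 fold change of 0.33 with SE 0.086 and adjusted p = 0.235 in limma). Kcnn1 (SK1) read 3.35, 2.84 and 3.07 against 3.73, 4.12 and 4.16 FPKM, again without overlap (log2 fold change of 0.29 with SE 0.087 and adjusted p = 0.254 in limma). Kcnn3 (SK3) read 3.43, 3.73 and 2.79 against 3.44, 3.80 and 2.66 FPKM and overlapped (log2 fold change -0.0086, adjusted p = 0.986 in limma). The summed level of the 8 genes for calcium- or sodium-activated channels was 57.9, 56.4 and 58.8 against 73.6, 69.8 and 70.6 FPKM, of which Kcnn2 made up 62.9%. Of 17 channel families, sums did not overlap for this 1 and for the cell-surface chloride channels, which are Clcn2 almost alone. The log2 fold change of Kcnn2 was 0.22 against WT replicate 3 alone and 0.031 (95% interval -0.40 to 0.46) after adjustment for the Y-linked share. For Kcnn1 these values were 0.30 and 0.32 (95% interval -0.21 to 0.84).

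The 2 abundant inward rectifiers had higher means with overlapping groups. Kcnj10 read 914, 753 and 966 against 1083, 942 and 899 FPKM. The highest value was that of cKO replicate 1 and the lowest that of WT replicate 2, while WT replicate 3 exceeded both other libraries labelled cKO. Its levels were 878 ± 111 and 975 ± 96.2 FPKM (mean ± SD, n = 3 each) (log2 fold change 0.15, 95% interval -0.12 to 0.42, adjusted p = 0.649 in limma). Kcnj16 read 24.9, 22.3 and 28.4 against 37.7, 25.5 and 32.9 FPKM, with cKO replicate 2 below WT replicate 3 (log2 fold change of 0.32 with SE 0.14 and adjusted p = 0.395 in limma). The log2 fold change of Kcnj10 was 0.048 when WT replicate 2 was left out and 0.076 without cKO replicate 1, and that of Kcnj16 0.20 without cKO replicate 1. Adjusted for the Y-linked share, log2 fold changes were -0.18 for Kcnj10 and -0.22 (95% interval -0.86 to 0.43) for Kcnj16. For 4 of the 6 astrocyte markers the mean of the libraries labelled cKO exceeded that of WT, and for Aqp4 and Aldh1l1 it was lower. Aldoc read 1053, 848 and 1138 against 1314, 1279 and 1418 FPKM, without overlap. Gjb6, which encodes the gap junction protein connexin 30, also did not overlap, at 15.4, 12.2 and 13.1 against 21.1, 24.7 and 21.8 FPKM. S100b read 5.94, 5.63 and 6.81 against 10.8, 6.44 and 7.87 FPKM and overlapped. Aqp4 read 175, 188 and 167 against 142, 192 and 149 FPKM. The part of the astrocyte markers in the Kcnj values was not tested.

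Other potassium channel pores had differences in both directions. Kcnc1 read 64.5, 58.5 and 70.4 against 62.3, 47.5 and 60.9 FPKM and overlapped (log2 fold change -0.18, adjusted p = 0.549 in limma). Kcnd3 read 36.2, 34.1 and 39.3 against 44.5, 33.8 and 40.1 FPKM (log2 fold change 0.10, adjusted p = 0.736 in limma). Kcnk1 (TWIK-1) differed by replicate number more than by group, at 81.7, 53.7 and 83.1 against 86.5, 57.0 and 80.8 FPKM. Both libraries numbered 2 were lowest (log2 fold change 0.041, 95% interval -0.40 to 0.49). Kcnt1, a channel opened by sodium, read 12.5, 15.1 and 11.5 against 12.3, 18.0 and 16.4 FPKM and overlapped (log2 fold change 0.23, adjusted p = 0.546 in limma).

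Kcnab3, a beta subunit of Kv1 channels, had the lowest fold change of the set. It read 6.15, 6.60 and 4.96 against 4.34, 4.72 and 3.66 FPKM, so that each of the libraries labelled cKO was below each WT library, though WT replicate 3 lay close to cKO replicate 2. The levels were 5.90 ± 0.847 and 4.24 ± 0.537 FPKM (mean ± SD, n = 3 each), a ratio of 0.718 (log2 fold change of -0.40 with SE 0.12 and adjusted p = 0.248 in limma), and the log2 fold change was 0.13 (95% interval -0.37 to 0.63) after adjustment for the Y-linked share. The other 5 tested accessory genes had ratios from 0.946 for Kcnab2 to 1.45 for Kcnmb4, a beta subunit of the BK channel that read 2.63, 2.48 and 3.40 against 5.19, 2.67 and 4.45 FPKM. Kcnip3 read 94.9, 90.1 and 105 against 98.7, 91.6 and 92.6 FPKM and overlapped (log2 fold change -0.035, 95% interval -0.20 to 0.13).

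Of the 3 tested sodium channel genes 2 had lower means. Scn3b, an accessory subunit, read 1.72, 1.94 and 1.51 against 1.54, 1.43 and 1.55 FPKM and overlapped (log2 fold change -0.12, adjusted p = 0.699 in limma). Scn8a, the pore Nav1.6, was highest in cKO replicate 1 and read 2.06, 2.31 and 2.38 against 3.04, 2.02 and 1.90 FPKM (log2 fold change 0.016, 95% interval -0.30 to 0.33).

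Among calcium channels the tested beta genes and 3 of 4 tested gamma genes had higher means. Cacnb1 (identifier 12295, chromosome 11, 98001508 to 98023034), a cytoplasmic subunit that helps pores reach the membrane, read 6.46, 7.29 and 6.17 against 8.87, 8.02 and 8.08 FPKM. The groups did not overlap, with 6.64 ± 0.581 and 8.32 ± 0.474 FPKM (mean ± SD, n = 3 each), a ratio of 1.25 (log2 fold change of 0.29 with SE 0.081 and adjusted p = 0.238 in limma). The log2 fold change of Cacnb1 was 0.38 against WT replicate 3 alone and 0.46 (95% interval -0.0042 to 0.92) after adjustment for the Y-linked share. In the annotation Cacnb1 overlaps the ribosomal protein gene Rpl19, and without stated strandedness their reads may not be separable. Cacnb3 read 9.79, 7.28 and 10.8 against 9.82, 8.56 and 11.9 FPKM and overlapped. Cacng5 had the highest log2 fold change of the set and read 67.3, 48.3 and 68.7 against 95.5, 67.4 and 79.0 FPKM, a ratio of 1.31 (log2 fold change of 0.39 with SE 0.16 and adjusted p = 0.374 in limma). Its groups overlapped because cKO replicate 2 lay under WT replicate 3. The log2 fold change of Cacng5 was 0.23 without WT replicate 2 and -0.12 (95% interval -0.92 to 0.67) after adjustment for the Y-linked share. Its neighbour Cacng4 read 60.1, 60.5 and 80.5 against 97.6, 68.6 and 84.0 FPKM (log2 fold change 0.31, adjusted p = 0.443 in limma), with log2 fold changes of 0.19 without cKO replicate 1 and -0.43 after that adjustment. Cacng7 read 67.6, 66.2 and 72.1 against 77.9, 74.2 and 66.0 FPKM (log2 fold change 0.079, adjusted p = 0.718 in limma). The pore gene Cacna1h read 10.1, 11.7 and 7.47 against 7.98, 9.11 and 7.07 FPKM (log2 fold change -0.23, adjusted p = 0.565 in limma), with a log2 fold change of -0.11 without WT replicate 2. Cacna2d2, an alpha2-delta subunit that raises the surface level of calcium channels, read 8.91, 8.08 and 9.13 against 9.44, 8.66 and 8.78 FPKM (log2 fold change 0.038, 95% interval -0.13 to 0.20).

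**Figure D3:**
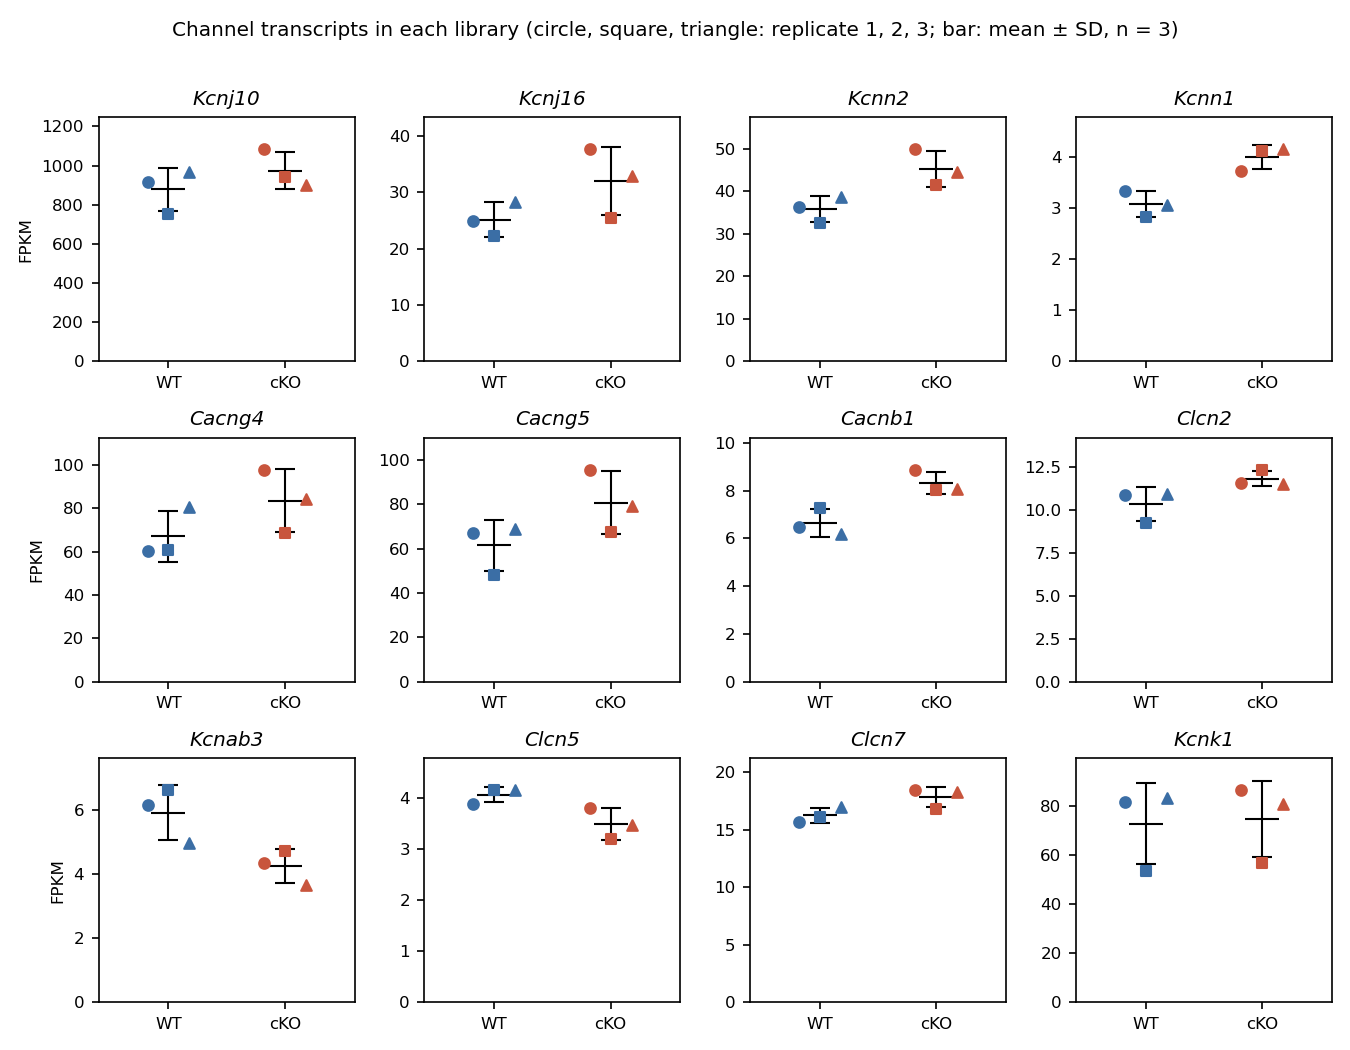
FPKM of 12 channel genes in each library of WT (blue) and cKO (red), with circle, square and triangle for replicates 1, 2 and 3 and bars for mean ± SD (n = 3 each). Kcnn2, Kcnn1, Cacnb1 and Clcn2 are higher in every library labelled cKO than in any WT library, and Kcnab3 and Clcn5 are lower in each.

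Chloride channel genes differed in direction. Clcn2 read 10.9, 9.22 and 11.0 against 11.6, 12.3 and 11.5 FPKM, without overlap (log2 fold change of 0.18 with SE 0.079 and adjusted p = 0.407 in limma), and its span overlaps that of Fam131a. The log2 fold change of Clcn2 was 0.11 without WT replicate 2 and 0.043 (95% interval -0.41 to 0.50) adjusted for the Y-linked share. Clcn5, an endosomal exchanger mutated in Dent disease, read 3.89, 4.15 and 4.15 against 3.81, 3.19 and 3.48 FPKM, without overlap although WT replicate 1 and cKO replicate 1 lay close together (log2 fold change -0.17, adjusted p = 0.459 in limma). The gene lies on the X chromosome, and its log2 fold change was -0.28 (95% interval -0.78 to 0.22) adjusted for the Y-linked share. Clcn3 read 51.0, 48.0 and 49.1 against 56.3, 48.8 and 49.4 FPKM and Clcn4 34.2, 30.7 and 32.6 against 39.0, 32.2 and 35.5 FPKM, and both overlapped. Clcn7, the lysosomal exchanger, read 15.7, 16.1 and 16.9 against 18.4, 16.8 and 18.2 FPKM and overlapped (log2 fold change 0.13, adjusted p = 0.465 in limma). Ostm1, the partner protein of Clcn7, read 22.1, 23.0 and 23.4 against 26.6, 24.1 and 25.4 FPKM without overlap (log2 fold change 0.14, adjusted p = 0.382 in limma).

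Pacemaker and TRP channels had small differences. Hcn2 read 5.93, 6.23 and 6.91 against 5.96, 5.44 and 6.02 FPKM (log2 fold change -0.11, 95% interval -0.29 to 0.073). Trpm7 read 17.2, 18.6 and 18.3 against 20.1, 17.3 and 18.3 FPKM (log2 fold change 0.037, 95% interval -0.12 to 0.20) and Trpc1 3.98, 4.13 and 3.48 against 4.21, 3.72 and 3.59 FPKM (log2 fold change -0.0067, 95% interval -0.22 to 0.20). Trpc4ap, the binding protein, read 65.5, 65.9 and 67.7 against 65.3, 69.6 and 67.9 FPKM (log2 fold change 0.026, 95% interval -0.094 to 0.15), a narrow interval for an abundant transcript.

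Some libraries stood apart for many channels at once. The library of cKO replicate 1 held the highest of the 6 values for 29 of the 57 channel genes, 50.9%, against 19.0% of all tested genes. Kcnip1, a partner of Kv4 channels, read 2.98, 2.10 and 3.34 against 6.05, 1.92 and 2.37 FPKM, and Kcnma1 1.86, 1.34 and 2.17 against 3.35, 1.56 and 2.13 FPKM. WT replicate 2 held the lowest value for 20 of the 57, 35.1%, against 2320 of all 11596 tested genes. Both libraries numbered 2 lay below the other 4 for 15 channel genes, 26.3% against 8.18% of all tested genes, and above them for 1, Kcnn3. Relative to the WT mean the median channel gene stood at 0.0012, -0.038 and 0.060 (log2) in the WT libraries and 0.11, -0.058 and 0.042 in the libraries labelled cKO. The library of cKO replicate 2 was thus below each WT library in this measure.

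**Figure D4:**
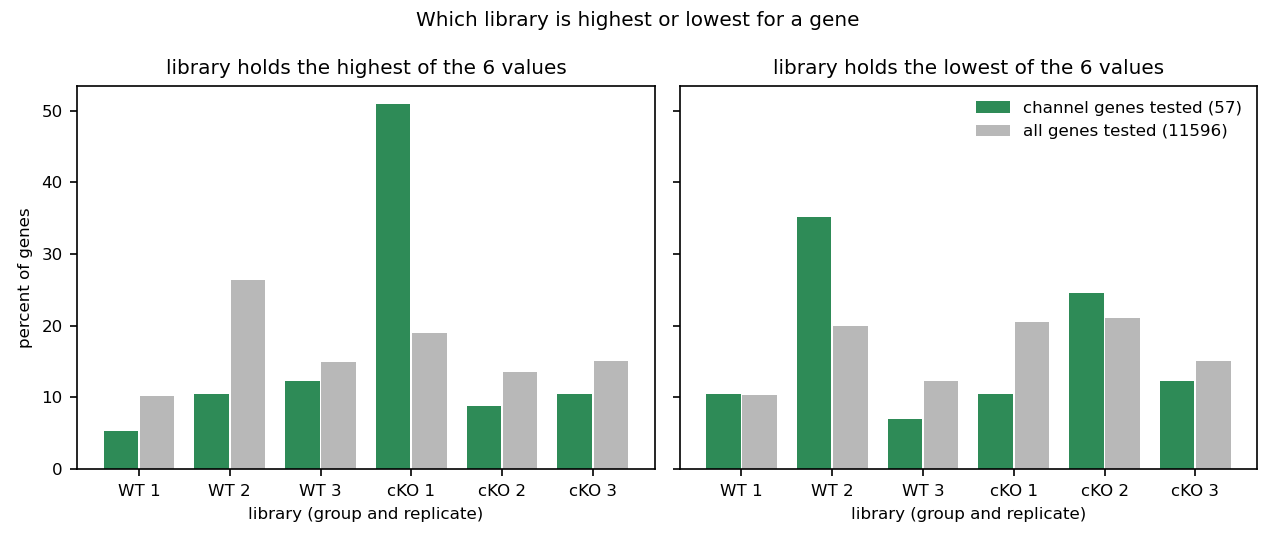
Percent of genes for which each library held the highest (left) or the lowest (right) of the 6 FPKM values, for the 57 tested channel genes (green) and all 11596 tested genes (grey). The library of cKO replicate 1 is highest for 50.9% of channels and that of WT replicate 2 lowest for 35.1%.

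Cell type markers differed between the same libraries. Astrocyte markers (6 of 6 in the table, none near 0) summed to 4338, 3028 and 4072 against 4175, 4232 and 4451 FPKM, lowest in WT replicate 2. Oligodendrocyte lineage markers (6 of 6) summed to 431, 424 and 505 against 426, 378 and 408 FPKM, and Sox10 in this list read 5.04, 14.4 and 4.76 against 4.70, 9.33 and 5.74 FPKM, highest in the libraries numbered 2. Olig2, which makes up most of that sum, was lowest in the same libraries and read 307, 240.4 and 348 against 304, 239 and 297 FPKM. Neuronal markers (7 of 7) summed to 78.3, 83.3 and 84.3 against 92.0, 77.7 and 78.0 FPKM, highest in cKO replicate 1. Map2 made up most of that sum and read 72.5, 77.6 and 79.1 against 84.8, 70.8 and 71.2 FPKM. Of the 2 tested neuronal markers the other 1 had a higher mean in the libraries labelled cKO. Dcx, Syt1, Rbfox3 and Stmn2 stayed below 0.5 FPKM throughout. The part of these differences in the channel values was not tested. In bulk samples fewer cells of a type and less RNA per cell cannot be told apart.

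Other genes of ion transport, in 7 lists with 115 of 130 genes in the table and 89 tested, had 0 genes past the adjusted threshold of 0.05 in limma. With an unadjusted p under 0.05 in limma, 8 of the 89 had higher and 13 lower means, larger shares than the 4.44% and 7.82% of all tested genes. Groups did not overlap for 14 of the 89 with higher and 14 with lower values, larger shares than 7.07% and 10.2% of all tested genes. The lists were chosen with earlier results of these data known. The median log2 fold change was -0.011. Among 15 tested genes of other chloride and volume channels 4 were higher and 4 lower at that level (12.3% of all tested genes in both directions), with a median of 0.0033. Clic1, a chloride intracellular channel protein, read 77.7, 74.2 and 74.8 against 55.3, 62.4 and 61.4 FPKM, without overlap (log2 fold change -0.34, adjusted p = 0.164 in limma). Ttyh1, a membrane protein of neural stem cells and astrocytes, read 374, 339 and 372 against 432, 429 and 412 FPKM (log2 fold change 0.23, adjusted p = 0.257 in limma). Its relative Ttyh3 read 322, 362 and 302 against 222, 287 and 289.6 FPKM, without overlap in the other direction (log2 fold change -0.31, adjusted p = 0.334 in limma). Lrrc8c, a subunit of the volume-regulated anion channel, averaged 3.63 and 2.61 FPKM in WT and the libraries labelled cKO.

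Of 9 tested genes of the sodium and potassium pump 3 were higher and 6 lower in mean (median log2 fold change -0.075). Fxyd7, a small regulator of the pump, was the 1 at an unadjusted p under 0.05 and read 13.6, 14.6 and 14.8 against 7.77, 12.7 and 11.4 FPKM (log2 fold change -0.42, adjusted p = 0.311 in limma). Of 9 calcium pumps and exchangers 4 had higher and 5 lower means, with a median of -0.011. Atp2b2, which expels calcium across the plasma membrane, read 4.32, 3.22 and 4.47 against 5.59, 5.07 and 5.92 FPKM, without overlap (log2 fold change 0.39, adjusted p = 0.244 in limma). Of 6 cation chloride cotransporters 5 had lower means, with a median of -0.091, where 6431 of all 11596 tested genes had lower means. Slc12a7 read 5.66, 6.54 and 4.45 against 3.30, 4.25 and 4.54 FPKM and overlapped (log2 fold change -0.38, adjusted p = 0.333 in limma).

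Of 17 tested genes of store-operated entry and stored calcium release 12 had higher means, where 44.5% of all tested genes did (median log2 fold change 0.064). Orai3, a subunit of store-operated calcium channels, averaged 13.0 and 11.6 FPKM in WT and the libraries labelled cKO, without overlap (log2 fold change -0.16, adjusted p = 0.408 in limma). Pkd2 averaged 20.2 and 18.2 FPKM. Of 11 other cation channels 5 had higher and 6 lower means, with a median of -0.010. Pkd1, a large membrane partner of Pkd2, read 27.2, 25.3 and 21.8 against 19.7, 17.4 and 19.3 FPKM, without overlap (log2 fold change -0.38, adjusted p = 0.223 in limma), and the mechanically gated Piezo1 averaged 5.87 and 4.67 FPKM. Of 22 partners of channel complexes 10 had higher and 12 lower means, with a median of -0.050. Oxsr1, a kinase that acts on cation chloride cotransporters, read 9.62, 10.3 and 9.91 against 8.91, 8.53 and 8.80 FPKM, without overlap (log2 fold change -0.17, adjusted p = 0.335 in limma).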

How the data were processed

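FPKM values of 14327 genes in 6 libraries were used as deposited by the authors, with the unit per the file headers. The submitters' processing notes name Bowtie2 and the build GRCm38 (mm10). Not given in the sources used here were counter, annotation, strandedness and filters. The lowest tabulated value was 0.01. A search of low values for steps worth 1 fragment left 36.6% to 57.8% of them whole within 0.1 fragment, so whole reads were not recovered, the depth is unknown and no count model was run.

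Libraries were grouped by the labels. Log2(FPKM + 1) was compared for the 11596 genes with a mean of 1 FPKM or more by limma 3.58.1 (lmFit, eBayes with trend) in R 4.3.3, with two-sided p-values adjusted over all of them by the Benjamini-Hochberg method and a threshold of 0.05. Fold changes on this scale understate those of low genes. The fit was tested on simulated data. Groups overlap unless every value of one exceeds every value of the other.

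The rule for named genes took Slc22a17, channel genes whose groups did not overlap, the 12 most abundant, the most abundant tested gene of each family, the largest change each way, and 2 to 4 genes of lowest p per companion list. Some genes that this rule takes are not reported here. Other genes named were chosen after their values were seen. Members and lists were chosen with earlier results of these data known. Gene positions and upstream windows are from RefSeq, GRCm38.p6, with all 122 channel rows matched by identifier. Alternatives comprised pseudocounts, filters, scaling, variance models, weights per library, a block by replicate number, leaving out libraries, and a covariate for the Y-linked share. Figures were drawn with matplotlib 3.10.9.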

Additional observations from a re-analysis of the deposited data

How the results depend on the processing

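No channel gene passed an adjusted p of 0.05 in limma under any of 17 alternatives, and the lowest adjusted p was 0.0582, for Kcnab3 with library weights. Of these, the comparison with WT replicate 3 alone assumes that this lone library varies like the others, and the adjustment for the Y-linked share rests mainly on it. Their lowest adjusted p of a channel gene were 0.999 and 0.921, so neither says anything of stability. The number of all genes past the threshold, 3 in the analysis as reported, was 0 without a filter, 0 with quantile normalization, 0 without trend, 129 with library weights, 0 against WT replicate 3 alone, 0 after adjustment for the Y-linked share, and 0 to 10 without 1 library each, highest without WT replicate 3. At an unadjusted p under 0.05 the 6 higher channel genes became 10 with median centring, 11 with library weights, 1 against WT replicate 3 alone, 1 after that adjustment and 3 to 12 without 1 library, lowest without cKO replicate 3 and highest without cKO replicate 2. The 2 lower ones became 1 with quantile normalization, 1 with median centring, 5 with library weights, 1 against WT replicate 3 alone, 1 after that adjustment and 1 to 3 without 1 library. Genes with groups that did not overlap, 5 higher and 2 lower, numbered 8 higher without a filter and 3 higher and 1 lower at a mean of 5 FPKM or more. They numbered 1 lower with quantile normalization, and 8 higher and 10 lower against WT replicate 3 alone. Without 1 library they numbered 5 to 15 higher and 3 to 7 lower, highest without cKO replicate 2 and WT replicate 3, where fewer libraries make separation easier. Higher means, 36 of 57, were 67 of 122 without a filter, 23 of 33 at 5 FPKM, 20 of 57 after that adjustment and 30 to 41 without 1 library. These counts of higher means were added after the data were seen. The median log2 fold change of 0.041 became -0.091 after that adjustment and 0.012 to 0.067 without 1 library. The cause of these shifts was not tested.

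Whether replicate numbers pair the libraries was not settled. Deviations from the group means over all genes correlated at -0.043, 0.30 and 0.26 for numbers 1, 2 and 3. Between libraries of unlike number they correlated at -0.40 to 0.17. Over the channel genes the values were -0.0081, 0.58 and 0.24 for numbers 1, 2 and 3, and -0.72 to 0.51 for unlike numbers. With the replicate number as a block 22 of all genes and 0 channel genes passed, and 9 higher and 5 lower channel genes had an unadjusted p under 0.05.

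Log2 fold changes that turned sign were Trpc1 at 0.034 with quantile normalization and 0.018 with median centring, and Kcnk1 at -0.097 with library weights. Against WT replicate 3 alone they were -0.17 for Kcnk1, -0.0029 for Trpc4ap, -0.0014 for Kcnd3, -0.099 for Cacnb3, 0.090 for Cacna1h, -0.025 for Cacna2d2, 0.11 for Trpc1, -0.042 for Scn8a. Adjusted for the Y-linked share they were -0.18 for Kcnj10, -0.43 for Cacng4, -0.63 for Kcnk1, -0.12 for Cacng5, -0.049 for Cacng7, -0.013 for Trpc4ap, -0.24 for Kcnd3, -0.055 for Trpm7, -0.47 for Cacnb3, 0.56 for Cacna1h, -0.12 for Cacna2d2, 0.13 for Kcnab3, 0.23 for Trpc1, -0.16 for Scn8a, -0.22 for Kcnj16. Leaving out 1 library gave ranges of -0.0094 to 0.070 for Cacna2d2, -0.034 to 0.22 for Cacnb3, -0.0082 to 0.094 for Clcn3, -0.084 to 0.027 for Kcnip3, -0.16 to 0.22 for Kcnk1, -0.13 to 0.11 for Scn8a, -0.065 to 0.033 for Trpc1, -0.018 to 0.084 for Trpm7. The cause was not tested. Depth is unknown, and 3 libraries a group limit precision.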

Other observations

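Without the filter, groups did not overlap for 8 higher and 3 lower of the 122 channel rows, against 5 and 2 of the 57 tested. Some of the 65 rows below the filter are given as values without a test. Among all tested genes 17.2% did not overlap. The share among all genes below the filter was not counted, so the counts without the filter have no like background. Scn2b, an accessory subunit of sodium channels, read 0.56, 0.74 and 0.65 against 1.07, 0.89 and 0.85 FPKM, higher in each of the libraries labelled cKO. Kcnj9 read 0.11, 0.18 and 0.10 against 0.23, 0.23 and 0.23 FPKM. Cacna1g, the pore of the T-type channel Cav3.1, read 0.36, 0.52 and 0.26 against 0.19, 0.19 and 0.20 FPKM, lower in each of the libraries labelled cKO, while its relative Cacna1h overlapped. All are levels near or below 1 FPKM, at which the number of fragments behind a value is unknown. These genes were chosen after their values were seen.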
